A study of Mus musculus with 20 samples.

Results

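The Hedgehog pathway was followed through 9 genes, Shh, Ptch1, Smo, Gli1, Gli2, Gli3, Hhip, Boc and Cdon, taken by gene symbol from the 37561 genes common to every deposited table. All 9 were found once in each table, and all 9 were among the 12740 genes that reached a typical level of 16 normalized read counts or more, the minimum set for testing. The cells were ESD3 (D3) mouse embryonic stem cells of strain 129s2/SvPas, grown on embryo fibroblast feeders and formed into spherical neural masses, which are floating clusters of neural precursors. The control line carried a short hairpin RNA against luciferase and the HPRT knockdown line carried one against HPRT, both delivered by a virus. Masses of both lines were taken through dopaminergic differentiation, and samples were collected for RNA sequencing each day up to day 4 and on alternate days up to day 14, which with day 0 makes 10 days. There was 1 library for each line and day, 20 libraries in all. The labels speak of replicated cultures, whereas the methods state that RNA was pooled within a time point before sequencing, and that the HPRT hairpin was made for the human gene. Each line is represented once, so the days are successive collections of 1 pair of lines and independently made lines were not compared. The methods also list recombinant sonic hedgehog protein among the differentiation reagents, and the sources used here give no day or dose for it. Values measured here are transcripts and do not include that protein.

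Hedgehog signaling starts with a secreted ligand, and Sonic hedgehog (Shh) is the one made by the floor plate, the ventral midline of the neural tube. The ligand binds Patched (Ptch1), which otherwise holds back the membrane protein Smoothened (Smo), and the signal from Smo in the primary cilium decides whether the Gli proteins activate or repress their targets. Gli1, Ptch1 and Hhip are textbook targets of the pathway as well as parts of it, so their transcripts are commonly read as its output. Boc and Cdon help the ligand to bind at the cell surface.

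The deposited tables hold 2 libraries each and give a log2 ratio between them, not a level. In the text below a ratio is the log2 value of the HPRT knockdown minus the control of the same day, and, unless another error is named, errors are standard deviations over the 9 days tested, without day 6, which the study set aside as discrepant. Ratios given in a row follow the order of the days. The methods give an average number of reads, and the sources used here do not state the depth of the individual libraries. Their normalization factors, which follow depth, ran from 0.826 to 1.59 of the median library, and the knockdown library had between 0.571 and 1.47 times the factor of the control library of the same day. Hprt, the targeted gene, had a negative ratio on each of the 10 days (-5.004 to -2.53), with a mean ratio of -4.002 ± 0.89 (n = 9 days, limma adjusted p = 8.96e-06). The 6 neural progenitor markers Sox1, Sox2, Pax6, Nes, Msi1 and Fabp7 all reached the minimum level. All 7 fibroblast markers and all 5 pluripotency markers reached it too, so that level does not check the neural label. The 5 pluripotency markers (Pou5f1, Nanog, Zfp42, Esrrb and Tdgf1) had a mean ratio of -7.11 on day 1 and -5.11 on day 10, against -3.71 to -1.05 on the other 7 days tested. In the knockdown line the mean of these markers stepped by -5.66 between days 0 and 1 and by -4.15 between days 8 and 10, so the knockdown libraries of days 1 and 10 stood apart from the others.

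The first comparison asked whether the pathway genes differed between the lines. Shh and Ptch1 were higher in the knockdown, and Gli2, Gli3 and Boc were lower, so that 5 of the 9 members passed the threshold of 0.05 (limma on the per-day ratios of all 12740 genes, Benjamini-Hochberg adjusted). Smo, Gli1, Hhip and Cdon did not pass. Of all genes tested 53.3% passed, 27.2% higher and 26.1% lower, so a share of 5 in 9 is near the background. The median of the mean ratios was -0.32 over the members and 0.01 over all genes tested. Leaving out days 1 and 10 together left 5 members past the threshold.

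**Figure D1:**
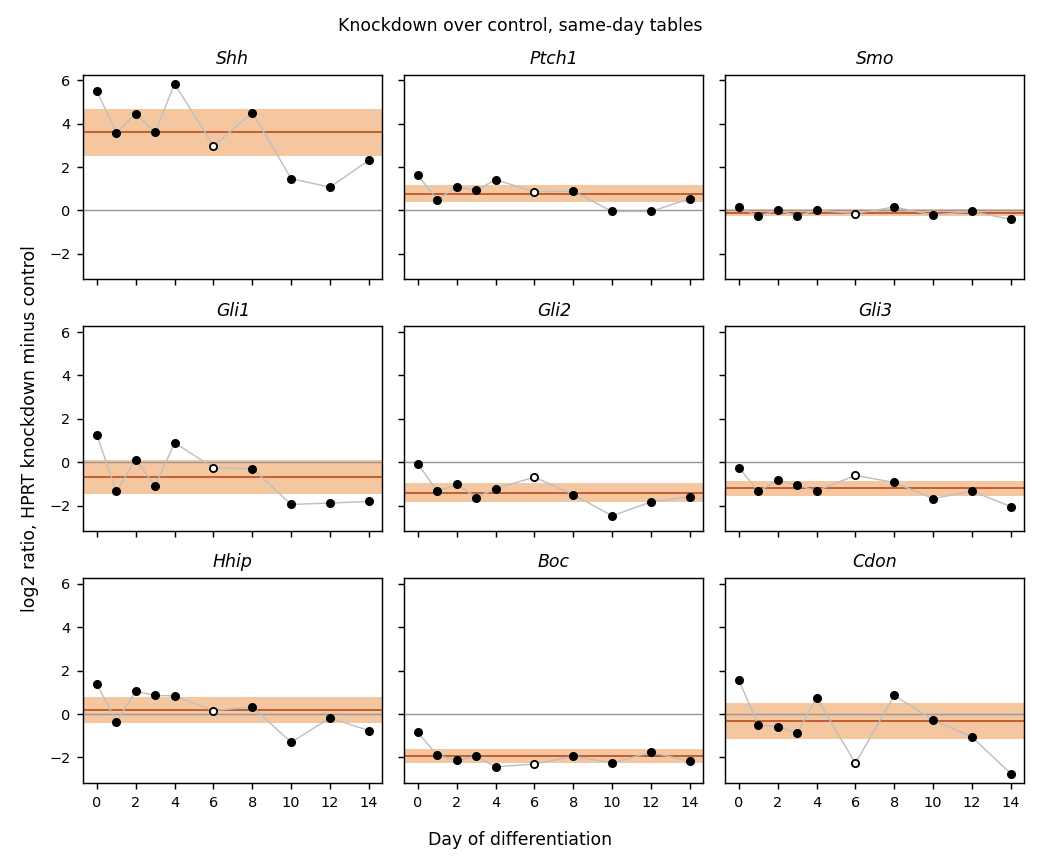
Log2 ratio of each of the 9 genes, HPRT knockdown minus control, against day of differentiation. Filled points are the 9 days tested, the open point is day 6, the orange line is the mean and the band its 95% interval from limma. Shh lies above 0 on all days, Boc, Gli2 and Gli3 lie below 0 on all days, and Gli1, Hhip and Cdon cross 0.

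Shh (Gene ID 20423, chromosome 5, 28783355 to 28793641 on the minus strand of NCBIM37/mm9, 3 exons) encodes the ligand. Its ratio was 5.49, 3.59, 4.44, 3.61 and 5.83 from day 0 to day 4. It stood at 2.98 on day 6 and at 4.51, 1.47, 1.07 and 2.31 from day 8 to day 14. The knockdown was higher on all 10 days, most on day 4 and least on day 12. The mean was 3.59 ± 1.68 (limma adjusted p = 0.00029), or 12.04-fold higher with a 95% interval from 5.61 to 25.8, the highest mean ratio among the 9 genes. The rounding of the deposited values placed Shh at between 24.6 and 61.4 reads in the control library of day 0, where it was close to its lowest, and at between 2155 and 5381 reads in the knockdown library of day 4, where it was highest. With 4 counts added to every library at the low end of these ranges the mean ratio was 3.49 (limma adjusted p = 0.000293). In these bulk libraries more or fewer cells of a type and more or less RNA per cell cannot be told apart, for Shh or for any other gene.

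Ptch1 (Gene ID 19206, chromosome 13, 63610261 to 63674474, minus strand) encodes the receptor, which is itself induced by the signal. Its ratio was 1.62, 0.49, 1.10, 0.92 and 1.42 from day 0 to day 4. Day 6 gave 0.85, and days 8 to 14 gave 0.89, -0.05, -0.05 and 0.54. Ptch1 had positive ratios through day 8, ratios near 0 on days 10 and 12, and a positive one on day 14. The mean was 0.76 ± 0.59, a 1.70-fold difference (95% interval 1.29 to 2.24, limma adjusted p = 0.00509, higher on 7 of 9 days).

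Ptch1 had a match to the GLI core motif GACCACCC (reverse complement GGGTGGTC, both strands searched) in the 1000 bases before its gene start in the GENCODE annotation. It was 1 of 2 members, of 9, with such a match, where 2.61% of 22380 protein-coding genes had one. These windows were searched after the shorter RefSeq promoter windows of 300 bases (6 members matched, 0 with the motif). The stretch is printed because Ptch1 is both the receptor and a pathway output. The capitals mark the motif, the stretch is read 5′ to 3′ along the strand of the gene, and the motif begins 307 bases before the start of Ptch1 (chr13:63674748-63674807, minus strand, NCBIM37).
Ptch1: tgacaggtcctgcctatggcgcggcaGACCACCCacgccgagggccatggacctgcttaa
A match of letters is a description of the sequence, and binding was not measured here.

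Gli1 (Gene ID 14632, chromosome 10, 126766945 to 126778645, minus strand) encodes a Gli protein that acts only as an activator and is widely used as a readout of the pathway. Its ratio was 1.24, -1.35, 0.13, -1.11 and 0.89 from day 0 to day 4. The later values were -0.26 on day 6 and -0.29, -1.94, -1.88 and -1.81 from day 8 to day 14. Gli1 was higher in the knockdown on days 0, 2 and 4 and lower on the other 7 days, while Shh was higher on every day. The mean was -0.68 ± 1.22 and missed the threshold (limma adjusted p = 0.136), and its 95% interval ran from a 2.79-fold lower to a 1.09-fold higher level in the knockdown. Without day 0 the mean was -0.92 and passed (limma adjusted p = 0.039).

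Hhip (Gene ID 15245, chromosome 8, 82490014 to 82581905, minus strand) encodes a membrane protein that binds the ligand and limits its spread, and it too is induced by the signal. Its ratio was 1.38, -0.35, 1.05, 0.86 and 0.83 from day 0 to day 4. It was 0.16 on day 6, followed by 0.33, -1.30, -0.17 and -0.76 from day 8 to day 14. The knockdown was higher on 5 of the 9 days tested, all between days 0 and 8, and lower on the other 4. The mean was 0.21 ± 0.91, short of the threshold (limma adjusted p = 0.539, 95% interval of the log2 ratio -0.39 to 0.81). It was 0.06 without day 0 and 0.40 without day 10.

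Smo (Gene ID 319757, chromosome 6, 29685694 to 29711365, plus strand) encodes the transducer held back by Patched. Its ratio was 0.15, -0.28, 0.01, -0.26 and 0.0076 from day 0 to day 4. Day 6 gave -0.15, and days 8 to 14 gave 0.16, -0.21, -0.05 and -0.41. Smo was the member with the smallest spread. The mean was -0.10 ± 0.20 (limma adjusted p = 0.305), and the 95% interval allowed a level in the knockdown between 0.829 and 1.05 times that of the control.

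Gli2 and Gli3 encode the Gli proteins that are present before the signal arrives. Gli2 is the main activator and Gli3 the main repressor of the pathway. For Gli2 (Gene ID 14633, chromosome 1, 120730709 to 120950196, minus strand) the ratio was -0.07, -1.34, -1.01, -1.63 and -1.22 from day 0 to day 4. Day 6 gave -0.69, and days 8 to 14 gave -1.49, -2.47, -1.83 and -1.59. Gli2 was nearly equal in both lines on day 0 and lower in the knockdown on every other day, with the deepest value on day 10. The mean was -1.40 ± 0.65 (limma adjusted p = 0.000314), or 2.65-fold lower with a 95% interval from 1.95 to 3.58.

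For Gli3 (Gene ID 14634, chromosome 13, 15555068 to 15821859, plus strand) the ratio was -0.25, -1.34, -0.82, -1.06 and -1.32 from day 0 to day 4. It stood at -0.61 on day 6 and at -0.93, -1.68, -1.33 and -2.04 from day 8 to day 14. As with Gli2, the smallest difference was on day 0 and the knockdown was lower on all 10 days. The mean was -1.20 ± 0.52 (limma adjusted p = 0.000236), or 2.29-fold lower with a 95% interval from 1.79 to 2.93.

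The 2 co-receptors behaved unlike each other. Boc (Gene ID 117606, chromosome 16, 44485158 to 44559010, minus strand) was lower in the knockdown on all 10 days. Its ratio was -0.85, -1.90, -2.12, -1.95 and -2.43 from day 0 to day 4. Day 6 gave -2.30, and days 8 to 14 gave -1.94, -2.25, -1.76 and -2.18. The smallest difference was again on day 0. The mean was -1.93 ± 0.45 (limma adjusted p = 1.3e-05), or 3.81-fold lower with a 95% interval from 3.06 to 4.75, the lowest mean ratio of the 9 genes. Same-sign ratios on all 9 days tested were found for Shh in the higher direction, where 14.6% of all genes had them, and for Gli2, Gli3 and Boc in the lower direction, where 15.3% had them.

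Cdon (Gene ID 57810, chromosome 9, 35228713 to 35315236, plus strand) changed sign through the course. Its ratio was 1.55, -0.51, -0.57, -0.89 and 0.76 from day 0 to day 4. Day 6 gave -2.27, and days 8 to 14 gave 0.86, -0.27, -1.06 and -2.74. High values on days 0, 4 and 8 stood against low values on days 6 and 14. The mean was -0.32 ± 1.27, short of the threshold (limma adjusted p = 0.496, 95% interval of the log2 ratio -1.15 to 0.51). It was -0.02 without day 14 and -0.55 without day 0.

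The order of the mean ratios ran from Shh over Ptch1, Hhip, Smo, Cdon, Gli1, Gli3 and Gli2 to Boc. All 36 pairs of members were compared day by day with a two-sided exact sign-flip permutation test over 9 days, adjusted over the 36 pairs, and the neighbours in this order are given. The order itself comes from the same ratios. Shh lay above Ptch1 on 9 of 9 days by 2.83 ± 1.14, and Ptch1 above Hhip on 9 of 9 days by 0.56 ± 0.49, both with p = 0.00391, the smallest that 9 days allow, and an adjusted p of 0.00639. Gli2 lay above Boc on 7 of 9 days by 0.53 ± 0.48 (exact permutation p = 0.0156, adjusted p = 0.0216). The 5 neighbouring pairs from Hhip to Gli2 did not differ beyond their spread, with exact permutation p-values from 0.125 to 0.57. Among pairs further apart in that stretch some differed and some did not. Hhip lay above Gli2 on 9 of 9 days by 1.61 ± 0.55 (exact permutation p = 0.00391, adjusted p = 0.00639). Hhip lay above Cdon on 6 of 9 days by 0.53 ± 1.08 (exact permutation p = 0.172, adjusted p = 0.188).

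The next comparison asked how the genes moved through the course in each line, with the ratios of consecutive-day tables added up from day 0. In the control line 4 of the 9 members had a slope on day that passed the threshold, and all 4 rose. They were Shh and its targets Ptch1, Gli1 and Hhip. Of all genes tested 44.3% passed in the control line and 19.5% passed as rising. Hhip rose by 0.21 ± 0.02 per day on the log2 scale (SE, limma adjusted p = 0.000227) and Gli1 by 0.16 ± 0.02 per day (SE, limma adjusted p = 0.000588). Relative to control day 0, control Gli1 stood at 0.78, 1.04, 1.97 and 2.16 on days 2, 4, 8 and 14, and control Hhip at 0.17, 0.55, 1.96 and 2.50. Both stood highest on day 14. Ptch1 rose by 0.11 ± 0.02 per day (SE, limma adjusted p = 0.00744), to 1.66 on day 12 and 1.06 on day 14. Shh rose by 0.16 ± 0.05 per day (SE, limma adjusted p = 0.0324), to 3.01 on day 12 and 1.15 on day 14. Without days 1 and 10 together the Shh slope was 0.11 (limma adjusted p = 0.129). Its call was also lost without day 0 (limma adjusted p = 0.0794), without day 1 (0.0741), without day 10 (0.0672) and without day 12 (0.11).

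In the knockdown line none of these 4 genes had a slope past the threshold. Their slopes per day were -0.09 for Shh (limma adjusted p = 0.423), 0.02 for Ptch1 (0.674), -0.004254 for Gli1 (0.972) and 0.08 for Hhip (0.203). Gli3 fell by 0.11 per day (limma adjusted p = 0.0211) and Cdon fell by 0.14 per day (limma adjusted p = 0.0408), so 2 of 9 members passed, both falling, against 13.7% of all genes in either direction and 5.91% falling. The Gli3 call was lost without day 12 (0.0722) or without day 14 (0.118), and the Cdon call without any single day other than 1 and 8 (0.0503 to 0.141). Relative to day 0 of its own line, Gli3 in the knockdown stood at 0.04, -1.20 and -1.65 on days 4, 10 and 14.

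**Figure D2:**
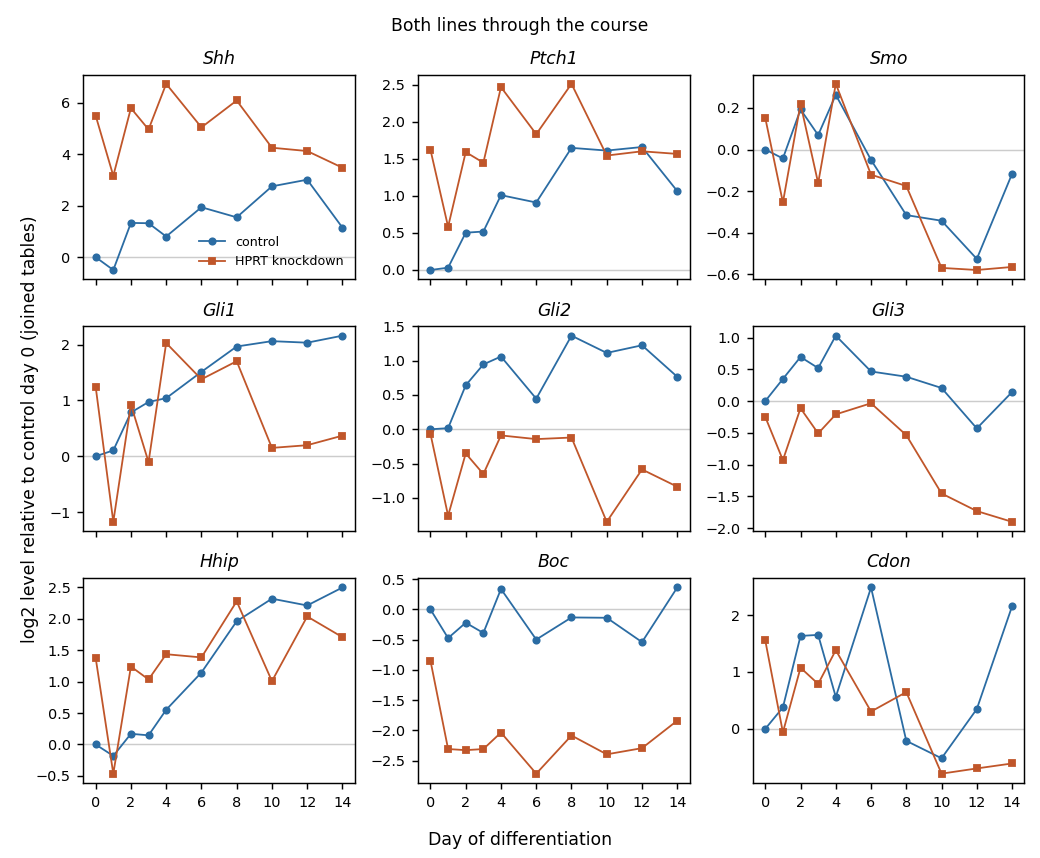
Log2 level of each gene relative to the control line on day 0, built by adding up consecutive-day tables, in the control line (blue circles) and the HPRT knockdown line (orange squares). Each panel has its own vertical scale. Shh, Ptch1, Gli1 and Hhip climb in the control line, and in the knockdown line they start higher, drop on day 1 and lose height again on day 10.

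The difference in trend between the lines was tested as the slope of the ratio on day. It was negative for all 9 members, with a median of -0.09 per day against 0.01 over all genes, and 1 member passed the threshold. The share of all genes with a negative slope was not taken. The ratios of the 9 members come from the same libraries and correlated at r = 0.218 to 0.955, so their signs are not independent. For Shh the ratio fell by 0.24 ± 0.07 per day (SE, limma adjusted p = 0.0499). Of all genes 14.9% passed in either direction and 6.89% as falling. The Shh value lay at the edge of the threshold, and its call was lost without any single day other than 1 and 8, with limma adjusted p-values from 0.0517 to 0.145, and without days 1 and 10 together (0.0804). With those 2 days left out the Hhip ratio fell by 0.14 per day and passed (limma adjusted p = 0.0111). The other slopes ran from -0.16 per day for Gli1 (limma adjusted p = 0.0869) to -0.01 per day for Smo (limma adjusted p = 0.563). The mean Shh ratio was 4.59 ± 1.04 over days 0 to 4 and 2.34 ± 1.53 over days 8 to 14.

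Between consecutive days there is 1 library on each side, so steps are given without a test. In the knockdown line Shh stepped by -2.33 from day 0 to day 1, by 2.63 to day 2, by -0.83 to day 3 and by 1.77 to day 4. Gli1 stepped by -2.42, 2.10, -1.03 and 2.13 over the same days, and Ptch1 by -1.04, 1.01, -0.14 and 1.02. The ligand and its targets went down, up, down and up together. This was not particular to the targets, since Smo, Gli2, Gli3 and Cdon took the same 4 directions. Smo, for example, stepped by -0.41, 0.47, -0.38 and 0.48. Boc did not follow, with -0.02 to day 2 and 0.02 to day 3. In the control line the same 4 steps were -0.50, 1.83, -0.01 and -0.52 for Shh and 0.10, 0.68, 0.19 and 0.07 for Gli1. Set side by side after their values were seen, Shh, Ptch1, Gli1 and Hhip moved in the same direction at 7 of 9 steps in the knockdown line and at 1 of 9 in the control line. Among the 5 steps that touch neither day 1 nor day 10 the counts were 4 and 0. The share of other sets of 4 genes that move so was not taken. Other members followed Shh as closely. Over the 9 knockdown steps the Pearson r with Shh was 0.979 for Ptch1, 0.948 for Cdon, 0.942 for Gli1 and 0.922 for Smo. It was 0.856 for Hhip, 0.822 for Gli2, 0.711 for Gli3 and 0.648 for Boc.

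The share of members past 2-fold was largest at 4 knockdown steps, picked after the values were seen. From day 0 to day 1, 7 of 9 members were more than 2-fold lower in the knockdown line, where 8.29% of all genes were, and 0 of 9 in the control line, where 2.79% were. From day 1 to day 2, 5 members were more than 2-fold higher in the knockdown line (3.81% of all genes) and 2 in the control line (1.04%). From day 3 to day 4, 3 members were more than 2-fold higher in the knockdown line (3.43%) and 0 in the control line (0.471%). From day 8 to day 10, 5 members were more than 2-fold lower in the knockdown line (6.15%) and 0 in the control line (0.361%). Counted in either direction, Shh passed 2-fold at 4 of 9 control steps and 6 of 9 knockdown steps, and Cdon at 5 and 4. Control Cdon stepped by -1.09 from day 3 to day 4, by 1.92 to day 6 and by -2.70 to day 8. No other member passed 2-fold in the control line, and Smo and Gli3 did so in neither line. The first, the second and the last of the 4 picked steps involve the knockdown libraries of days 1 and 10, whose pluripotency markers stood apart. The part of those libraries' state in the steps was not tested.

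Floor plate markers moved with Shh. A list of 6 markers, among them Foxa2, Corin, Lmx1a, Spon1 and Ntn1, of which 6 of 6 were higher in the knockdown by limma, had a mean ratio between 1.09 and 3.80 over the 9 days, highest on day 4 and lowest on day 12, the same days as Shh. In the knockdown line the mean of the list stepped by -1.79 from day 0 to day 1, 1.23 to day 2, -0.50 to day 3, 2.10 to day 4, -1.58 to day 6, 0.95 to day 8 and -1.11 to day 10. Shh stepped by -1.69 to day 6, 1.04 to day 8 and -1.83 to day 10. The list and Shh had the same sign at 8 of 9 steps in the knockdown line and at 8 of 9 in the control line, where the steps of the list lay between -0.38 and 0.62. Other marker lists moved in the knockdown line as well. The oligodendrocyte lineage list stepped by 0.59, -0.51, 1.71, -2.42, 1.76, 0.14 and 1.72 up to day 10, with the sign opposite to Shh at 6 of these 7 steps. The neuron list ran between -1.38 and 1.42 per step, the astrocyte list between -1.35 and 0.71, the fibroblast list between -0.75 and 1.26 and the neural progenitor list between -0.73 and 0.38. The 2 endoderm markers that reached the minimum level stepped by -3.48 from day 0 to day 1 and by 2.83 from day 10 to day 12. In the knockdown line the neural progenitor, neuron and fibroblast lists each shared the sign of Shh at 7 of 9 steps. The endoderm markers did at 6, the astrocyte and pluripotency lists at 5 and the oligodendrocyte list at 2. Control counts were 7 for the oligodendrocyte list, 5 for the neuron, astrocyte, fibroblast and endoderm lists, and 3 for the neural progenitor and pluripotency lists. The part of floor plate cells, or of any other of these cell types, in the Shh ratio and in the steps was not tested. Pax6 (lower) and Sox2 (higher) were the neural progenitor markers that passed, and the mean ratio of that list lay between -0.50 and 0.48. By limma 4 of 5 astrocyte markers were higher and 1 lower, 2 of 4 neuron markers and 2 of 7 fibroblast markers were lower, and neither of the 2 endoderm markers passed.

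**Figure D3:**
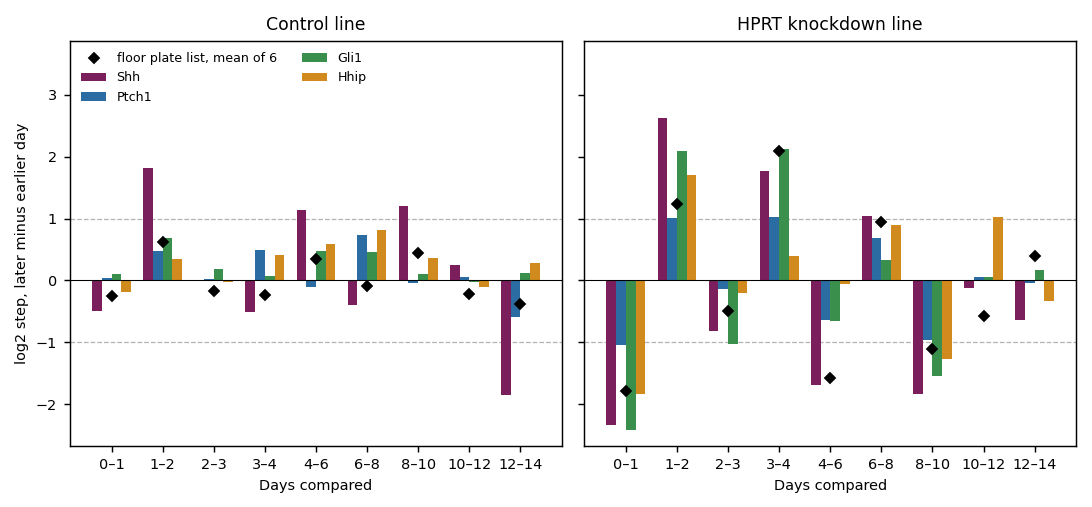
Log2 step between consecutive days for Shh, Ptch1, Gli1 and Hhip (bars, 1 library per line and day) and the mean of the 6 floor plate markers (diamonds) in the control line (left) and the HPRT knockdown line (right). Dashed lines mark a 2-fold step. In the knockdown line the bars swing down into day 1, up into days 2 and 4 and down into day 10. The diamonds share the sign of Shh at 8 of 9 steps in each line.

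Other genes of the pathway were read from 7 lists with 71 entries, of which 63 genes were present and reached the minimum level. By limma 22 of the 63 were higher (34.9%) and 16 lower (25.4%), where 27.2% and 26.1% of all genes were, and without days 1 and 10 together 30 passed in either direction in place of 38. Among 6 other ligand and release genes 2 were higher and 1 lower. Dhh, a ligand of Schwann and Sertoli cells, was at 1.71 ± 1.19, Scube3, which helps release the ligand, at 1.12 ± 1.07, and its relative Scube2 at -1.24 ± 1.34. Among 4 other receptors and co-receptors Gpc3, a glypican that competes for the ligand, was higher (1.303 ± 1.01) and the co-receptor Gas1 lower (-1.01 ± 0.66), while Lrp2, an endocytic receptor, was at 0.07 ± 0.78 (limma adjusted p = 0.827).

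Genes that carry the signal inside the cell came next. Among 18 cytoplasmic regulators 5 were higher and 4 lower, with mean ratios between -0.50 and 0.58. The highest were the beta-arrestin Arrb1 (0.58 ± 0.52), the kinase Ulk3 (0.56 ± 0.20) and the kinase Stk36 (0.39 ± 0.47), and the lowest were the kinase Dyrk2 (-0.50 ± 0.35), the inhibitory receptor Gpr161 (-0.44 ± 0.30) and the protein kinase A subunit Prkacb (-0.30 ± 0.34). Sufu, which holds Gli proteins in the cytoplasm (-0.06 ± 0.31), and the ciliary kinesin Kif7 (0.21 ± 0.46) were among the 9 that did not pass. Among 11 cilium transport genes 1 was higher, the Tubby-like protein Tulp3 (0.48 ± 0.29), and 2 lower, Ttc21b (-0.50 ± 0.46) and Ift88 (-0.38 ± 0.45), which are parts of the transport trains of the cilium.

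The transcription factors and secreted proteins of the ventral neural tube, which the signal turns on, had the highest median of the lists at 2.24. Of 10 such genes 9 were higher, 0 lower and Nkx6-1 did not pass (0.93 ± 1.54). Foxa2, Spon1 and Ntn1 are among those also in the floor plate list. The highest were Nkx2-2 (3.42 ± 1.88) and Olig2 (3.02 ± 1.44), which mark ventral progenitors. The lowest that passed were the floor plate factor Foxa2 (1.24 ± 0.93) and the guidance protein Ntn1 (1.60 ± 1.01). Ratios of Olig2 rose by 0.24 per day (limma adjusted p = 0.0162) and those of Nkx2-2 by 0.33 per day (limma adjusted p = 0.00707), opposite in sign to the slope of Shh. Olig1, Olig2 and Nkx2-2 are also made by oligodendrocyte precursors. The 7 oligodendrocyte lineage markers, which include Olig1 and Olig2 themselves, went from a mean ratio of -0.52 on day 0 to 4.16 on day 14. The part of that lineage in the ratios of Olig1, Olig2 and Nkx2-2 was not tested.

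Another list held dorsal or intermediate genes that the signal is known to hold down in the neural tube. Among its 7 genes 4 were lower and 2 higher, with a median of -1.02. Whether the signal holds each of them down in these cultures was not tested. Dbx1 (-3.24 ± 1.72), Pax3 (-2.77 ± 1.19) and Pax6 (-1.36 ± 0.74) were the lowest, and Msx1 (1.34 ± 1.003) and Dbx2 (1.23 ± 0.89) the highest. Dbx1 and Dbx2 are close relatives of the intermediate neural tube and had opposite signs on 9 of 9 days. Among 7 general growth targets 2 were higher and 4 lower. Bcl2, an inhibitor of cell death, was at 0.62 ± 0.58 and the cyclin Ccnd1 at 0.57 ± 0.71, whereas Mycn, a driver of progenitor growth, was at -2.46 ± 1.23, the repressor Prdm1 at -1.34 ± 1.35 and the Wnt inhibitor Sfrp1 at -0.66 ± 0.80.

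**Figure D4:**
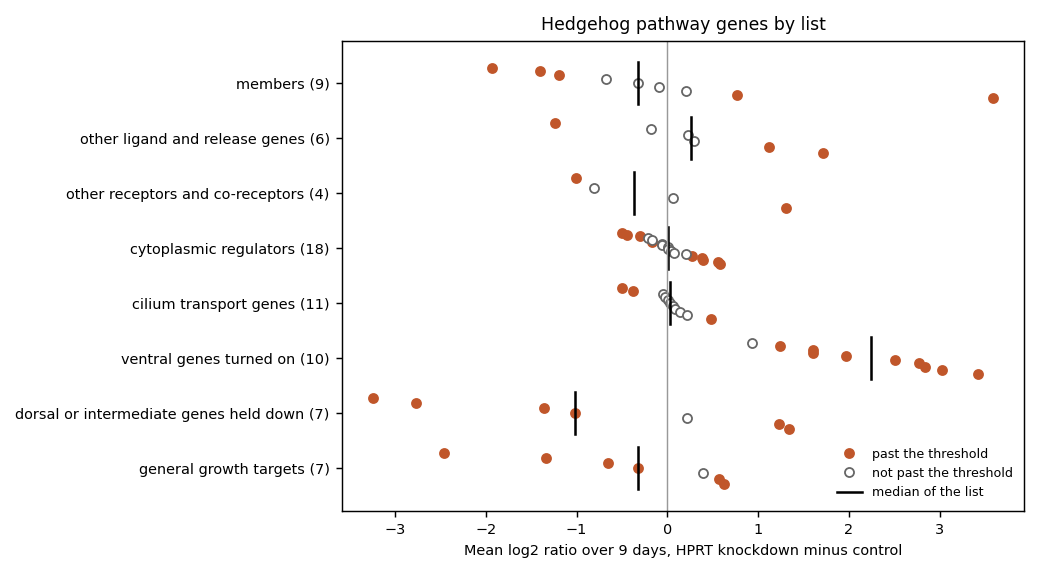
Mean log2 ratio over 9 days, HPRT knockdown minus control, of each gene in the 9 members and in 7 lists of other pathway genes, with the number of genes that reached the minimum level. Filled points passed the limma threshold, open points did not, and black bars are list medians. Regulators and cilium genes stay within 0.58 of 0, while the ventral list lies wholly to the right.

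The genes whose per-day ratios ran most like those of 3 members were named by Pearson correlation over the 9 days, as a description over 9 points. All genes share the same libraries, so the correlations carry no test. For Gli1 they included Chrna7, a nicotinic receptor subunit (r = 0.977), and the potassium channel Kcnk6 (r = 0.972). For Shh they were Lsp1 (r = 0.978), Paqr7 (r = 0.973) and Zfhx3 (r = 0.97), and for Ptch1 they included Zfhx3 (r = 0.973) and Nid2 (r = 0.966). Paqr7 was higher in the knockdown (2.38, limma adjusted p = 6.12e-05), Chrna7 lower (-1.32, limma adjusted p = 0.000771) and Nid2 lower (-0.94, limma adjusted p = 0.00458). Zfhx3 appeared for both Shh and Ptch1, whose own ratios correlated at r = 0.955.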

How the data were processed

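The authors aligned 50-cycle Illumina reads with ELAND to the mm9 build (CASAVA 1.8.2 in the submitters' processing notes) and made gene counts, normalized by DESeq, in Avadis NGS. As deposited, each of 28 tables holds 2 libraries, normalized by itself, as log2 normalized counts minus the mean of both, so that only the log2 ratio is informative. Values at or below 1 normalized count had been set to log2 0. The methods spread the 20 libraries evenly over the lanes of a flow cell, and the lane of each library is not given in the sources used here. Strand is not given either. Overlapping genes could therefore share reads.

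Ratios of the 10 same-day tables were tested with limma 3.58.1 (R 4.3.3) over 9 days, with day as the block because the study compared the lines within time points, Benjamini-Hochberg adjusted over 12740 genes at 0.05. Slopes were linear on day, and line courses joined the consecutive-day tables. Levels were bounded from the rounding of the stored values, since attempts to rebuild whole reads gave clear solutions for only some members. A typical level of 16 normalized counts was required. Tables agreed around 8 of 9 loops of neighbouring days within 1e-05 for 91.6% to 93.2% of genes. The loop of days 3 and 4 did not close (0.031%), and taking that control step through other tables moved the members by -0.03 to 0.02. Scripts were tested on simulated data. Days are successive collections, so p-values measure the spread over days of 1 line pair.

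Every member was named. From each list the called genes with the 3 highest and 3 lowest mean ratios were named, with all genes of lists of 6 or fewer. The 3 genes most correlated with Shh, Ptch1 and Gli1 were named as well. Sufu, Kif7 and Nkx6-1, which were not called, were named outside this rule. Some genes and 1 sequence that this rule selects are not reported here. Members and lists were chosen with earlier results of these data known. Gene positions and the windows before gene starts came from the GENCODE annotation of NCBIM37 (mm9).

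Alternatives were day 6 kept, other filters, no block, an exact sign-flip permutation test, recentring, least squares over all tables, log2 of day, pseudocounts of 1 and 4, and each day left out.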

Additional observations from a re-analysis of the deposited data

Results flagged for a closer look

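The Boc ratio on day 0, -0.85, stood apart from the other 8 days tested, with a gap to its nearest neighbour of 0.577 of the whole range, above Dixon's limit of 0.493 for 9 values. Chance alone gives about 1 such value in 20 groups. Without day 0 the mean Boc ratio was -2.07.

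The Shh ratio had a slope of -0.24 per day (limma adjusted p = 0.0499), which tests the difference in trend between the lines. The call was at the edge of the threshold. It was kept without day 1 and without day 8, and was lost under every other alternative.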

How the results depend on the processing

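Of 580 alternative values with a test, 525 kept direction and side of the threshold. The cause was not tested for the others. The same 5 members passed with day 6 kept, without a filter, with recentring, pseudocounts, least squares, the exact sign-flip permutation test and days 1 and 10 left out (chosen after seeing the data). The labels give both lines the same days without saying that they were handled together. Same-day deviations of the lines correlated over 0.1 on 8 of 9 days (0.0348 on day 0 to 0.517), and on 4 of 9 days the control library correlated best with the knockdown library of its own day. Without the day as pairing block (no replicate block) 5 members, 31 listed genes and 5404 of all genes passed. The stricter filter tested fewer genes, 7136, and of the members only Ptch1, Smo, Gli3 and Cdon, each with its call as before (2 called). It called 18 listed genes and 4101 of all genes.

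The Shh ratio slope lost its call with day 6 kept (-0.24, limma adjusted p = 0.0569), log2(day + 1) (-0.86, 0.0888), recentring (-0.25, 0.0502), no filter (-0.24, 0.0866) and days 1 and 10 left out (-0.26, 0.0804). Slopes on log2(day + 1) were -0.39 for the Gli2 ratio and 0.30 for control Gli2, both now called, and in the knockdown line 0.024 for Gli1, -0.37 for Gli3 and -0.49 for Cdon, none called. Without days 1 and 10 the Hhip ratio slope was -0.14, now called, the control Shh slope 0.11 and the knockdown Ptch1 slope -0.000221. Without a filter the control Shh slope of 0.16 and the knockdown Cdon slope of -0.14 were not called.

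Leaving out 1 day at a time, the mean ratio ran from -0.92 to -0.52 for Gli1, 0.06 to 0.40 for Hhip and -0.55 to -0.02 for Cdon. Ratio slopes ran from -0.29 to -0.20 for Shh, -0.11 to -0.063 for Ptch1, -0.21 to -0.12 for Gli1, -0.090 to -0.054 for Gli3, -0.16 to -0.10 for Hhip and -0.049 to 0.001311 for Boc. Without day 1 those of Ptch1, Gli1, Gli3 and Hhip were called. Control slopes ran from 0.12 to 0.25 for Shh, -0.052 to -0.026 for Smo, 0.045 to 0.096 for Gli2, -0.014 to 0.031 for Boc and -0.080 to 0.040 for Cdon. Knockdown slopes ran from -0.005503 to 0.043 for Ptch1, -0.064 to -0.049 for Smo, -0.060 to 0.021 for Gli1, -0.13 to -0.10 for Gli3, -0.052 to 0.017 for Boc and -0.17 to -0.13 for Cdon.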
